A study of Mus musculus with 2 samples.

Results

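Members of the NF-κB system were compared between untreated AML12 cells and AML12 cells made prematurely senescent with hydrogen peroxide. The set held 10 genes, chosen by name among the 35275 genes of the count table, with earlier results of these data known. They were the 5 subunit genes Nfkb1, Nfkb2, Rela, Relb and Rel and the 5 inhibitor and regulator genes Nfkbia, Nfkbib, Nfkbie, Bcl3 and Tnfaip3. All 10 were found, and all 10 had at least 10 reads over both libraries. AML12 is a non-transformed hepatocyte line that was started from a mouse carrying a human TGFα transgene, so both groups share that transgene. The labels give strain CD-1, liver, male and an age of 3 months for both groups, and they call the untreated cells Young and the treated cells Old, although both are the same line. The complete growth medium contained serum and dexamethasone, a glucocorticoid, and only the senescent group received repeated sublethal doses of peroxide. The doses were given in serum-free medium, which was replaced by the complete medium for recovery each day. The paper does not say whether the control group had the same changes of medium, so these cannot be told apart from the peroxide. Each condition was read from 1 library, made from the combined RNA of 3 samples, so each difference below compares 2 libraries, has no replicate check and carries no p-value.

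NF-κB is a family of dimeric transcription factors built from the subunits that these 5 genes encode. In resting cells the dimers are held in the cytoplasm by IκB proteins. Ligands such as TNF, interleukin-1 and bacterial products activate the IKK kinase complex, which marks the IκB proteins for destruction and frees the dimers to enter the nucleus. A separate, slower branch runs through the kinase NIK and converts the precursor made from Nfkb2 into its active form, which pairs with the Relb product. Several inhibitor genes are themselves NF-κB targets, so that the pathway limits itself, and in the liver it governs acute phase proteins, chemokines and survival of hepatocytes.

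The control library held 28021941 counted reads and the senescent library 25738075. Levels are given as CPM, the reads of a gene as a part of all counted reads on a common scale, after scaling with edgeR's TMM method, and changes as the log2 ratio of senescent over control with a 95% interval that covers counting error only. A gene was called lower or higher when its log2 ratio passed -1.5 or 1.5 and its interval left out 0. The labelled cell type was checked with 12 hepatocyte markers, of which all 12 had at least 10 reads. Of these, Alb (32076 and 2917 reads) and Apoa1 (2026 and 197 reads) were called lower, none was called higher and 10 were not called. Hnf4a had 8187 control and 7705 senescent reads, and Krt18, Krt8 and Apob had log2 ratios of 0.82, 0.51 and 0.41. Cebpa, Serpina1a and Ttr, also not called, stood at -1.44, -1.42 and -0.91. Of the 12 markers, 5 had an interval below 0 and 5 one above 0. Trf had the fewest reads, 26 and 17. Several markers that define other cells of the liver were absent. Adgre1 and Clec4f of macrophages, and Cd3g, Ms4a1 and Cd2 of lymphocytes, had 0 reads in both libraries. The summed level of the 8 macrophage markers went from 194 to 82.2 CPM, almost all of it Cd14 with 5551 and 1879 reads, which was not called. Of the 4 with at least 10 reads none was called lower and 2 were called higher, Csf1r with 15 and 40 reads (1.58) and Ptprc, listed for both macrophages and lymphocytes, with 27 and 76 reads (1.68). The 8 fibroblast markers summed to 0.928 and 0.403, the 5 endothelial markers to 0.206 and 0.524, and the 7 lymphocyte markers to 1.10 and 3.19 CPM. The 4 cholangiocyte markers, which include keratins, summed to 1023 and 994 CPM. Krt19 had 22885 and 19177 reads, Sox9 3602 and 4454, and Krt7 3248 and 1026, while Epcam had 0 and 1. None of the 3 with at least 10 reads was called. The part of these markers in the results below was not tested.

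The NF-κB genes called lower in the senescent library were all inhibitors or regulators. Of the 5 inhibitor and regulator genes, Nfkbia, Tnfaip3 and Nfkbie were called lower, 3 of the 10 genes in all, and none was called higher. Of the 5 subunit genes none was called in either direction. Among all 14383 genes tested, 5.60% were called lower and 2.71% higher. The median log2 ratio was -1.61 over the inhibitor genes, -0.57 over the subunit genes and -0.02 over all genes tested. Less RNA per cell and fewer expressing cells cannot be told apart in these libraries.

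**Figure D1:**
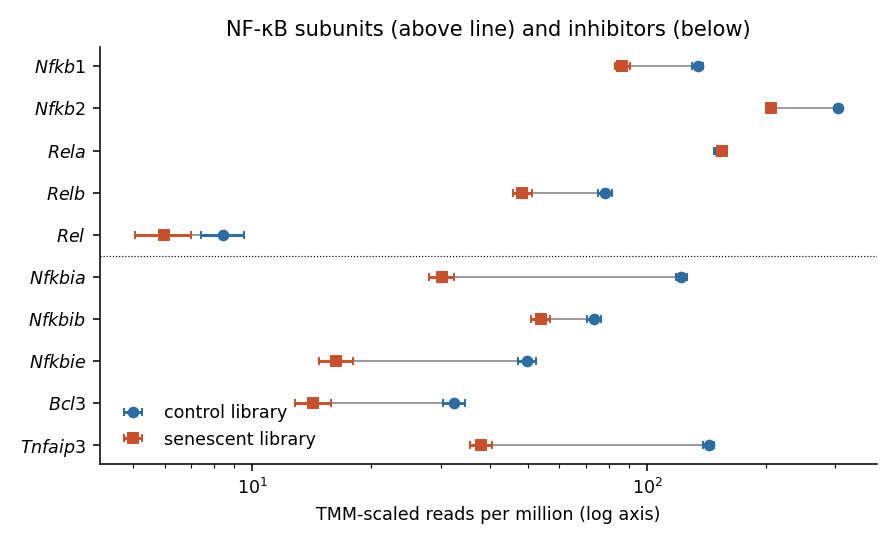
TMM-scaled CPM (log axis) of each NF-κB gene in the control library (blue circles) and the senescent library (orange squares), with exact Poisson 95% intervals that cover counting error only. Subunits stand above the dotted line and inhibitors below it. The points of Rela coincide at 152 and 154, and the widest gap is that of Nfkbia, from 122 to 30.2.

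Nfkbia encodes IκBα, the inhibitor that is degraded and made anew most rapidly when the pathway is activated. It is ENSMUSG00000021025 on chromosome 12, from 55489410 to 55492647 on the minus strand of GRCm38. The control library had 3554 reads, or 122 CPM, and the senescent library 748 reads, or 30.2 CPM. The senescent library thus had 24.7% of the control level, a log2 ratio of -2.02 (-2.13 to -1.90). Of all genes tested, 3.16% had a lower ratio.

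The bases just before the Nfkbia start are shown because the κB motif, the 10-base pattern that NF-κB dimers bind, lies in them. The sequence is the 250 bases before the RefSeq transcript start, chr12:55492648-55492897 on the minus strand of GRCm38.p6, written 5′ to 3′ in the direction of transcription, and the capitals mark the match to the motif. It overlaps no exon of the GENCODE M21 annotation.
Nfkbia: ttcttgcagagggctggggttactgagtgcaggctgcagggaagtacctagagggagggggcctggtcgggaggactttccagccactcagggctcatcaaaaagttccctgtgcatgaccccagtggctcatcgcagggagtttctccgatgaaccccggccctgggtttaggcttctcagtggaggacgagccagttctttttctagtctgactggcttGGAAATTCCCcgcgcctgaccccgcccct
The match lies at -29 to -20, counted from -1 at the last base before the start.

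Tnfaip3 encodes A20, a ubiquitin-editing enzyme that shuts off signaling upstream of the IKK complex. It is ENSMUSG00000019850 on chromosome 10, from 19000910 to 19015657 on the minus strand. Its 4166 control reads compare with 940 senescent reads, or 143 and 37.9 CPM, which left 26.5% of the control level and a log2 ratio of -1.92 (-2.02 to -1.82). Nfkbie encodes IκBε, an inhibitor that acts later than IκBα after stimulation. It is ENSMUSG00000023947 on chromosome 17, from 45555703 to 45563169 on the plus strand. It had 1444 control and 404 senescent reads, or 49.7 and 16.3 CPM, and a log2 ratio of -1.61 (-1.77 to -1.45). Its interval reached past -1.5, and it was no longer called when a biological coefficient of variation of 0.4 was assumed.

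The promoters of these genes are shown for the same reason as that of Nfkbia. For Nfkbie the 250 bases before the RefSeq start (chr17:45555450-45555699, plus strand) are given, with the match at -106 to -97 in capitals. For Tnfaip3 a pair of 30-base stretches around separate matches is given, at -125 to -116 (chr10:19015516-19015545) and at -12 to -3 (chr10:19015403-19015432, both minus strand) from the upstream of its 2 RefSeq starts. Both Tnfaip3 matches lie within the GENCODE M21 gene, which starts further upstream at 19015657, but overlap no annotated exon. All are written 5′ to 3′ in the direction of transcription.
Nfkbie: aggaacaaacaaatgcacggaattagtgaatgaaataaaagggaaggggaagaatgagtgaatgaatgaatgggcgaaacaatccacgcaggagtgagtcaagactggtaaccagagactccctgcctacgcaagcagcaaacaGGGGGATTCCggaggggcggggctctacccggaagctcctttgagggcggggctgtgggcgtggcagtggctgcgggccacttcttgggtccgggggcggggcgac
Tnfaip3 distal: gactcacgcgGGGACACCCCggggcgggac
Tnfaip3 proximal: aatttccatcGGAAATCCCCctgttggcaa

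The other inhibitor genes changed less. Bcl3 encodes a nuclear IκB-like protein that binds the p50 and p52 homodimers and can act as a coactivator. It lies on chromosome 7 from 19808462 to 19822770 and had 943 control and 354 senescent reads, or 32.4 and 14.3 CPM. Its log2 ratio of -1.18 (-1.36 to -1.01) was short of the threshold, and Bcl3 was called only with a threshold of 1, at which 4 of the 10 genes were called lower and none higher, against 9.98% and 5.09% of all genes tested. The antisense transcript Gm16175 shares 161 exon bases with Bcl3 and had 28 and 8 reads, and since the strand setting of the counting is not given in the sources used here, reads of that stretch cannot be told apart. Nfkbib encodes IκBβ, the IκB protein with the slowest turnover after stimulation. It lies on chromosome 7 from 28758251 to 28767512 and had 2135 and 1333 reads, or 73.4 and 53.7 CPM. Its log2 ratio of -0.45 (-0.55 to -0.35) was the nearest to 0 among the inhibitor genes. Nfkbib shares 314 exon bases with Ccer2, which had 3 and 1 reads, and 42 with Sirt2, which had 2111 and 2328. Both lie on the opposite strand, so reads of these stretches cannot be told apart either.

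Rela, which encodes p65, the main transactivating subunit, was level between the libraries. It lies on chromosome 19 from 5637483 to 5648130 and had 4422 control and 3831 senescent reads, or 152 and 154 CPM after scaling. The log2 ratio was 0.02 (-0.04 to 0.09) and turned to -0.02 with upper-quartile scaling and to -0.08 with scaling by total counts, where its interval no longer held 0.

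The remaining subunit genes were modestly lower, each by less than the threshold. Nfkb1, which encodes the p105 precursor of p50 (chromosome 3 from 135584655 to 135691547), had 3912 and 2148 reads, or 135 and 86.6 CPM, a log2 ratio of -0.64 (-0.71 to -0.56). Nfkb2, which encodes the p100 precursor of p52 (chromosome 19 from 46304320 to 46312385), had 8871 and 5105 reads, or 305 and 206 CPM, a log2 ratio of -0.57 (-0.62 to -0.52). Relb, whose product pairs with p52 in the NIK branch (chromosome 7 from 19606217 to 19629438), had 2275 and 1199 reads, or 78.2 and 48.3 CPM, a log2 ratio of -0.69 (-0.80 to -0.59). Nfkb1, Nfkb2 and Relb thus kept between 61.8% and 67.5% of the control level. Rel, which encodes c-Rel, a subunit typical of lymphoid cells (chromosome 11 from 23736847 to 23770970), had the fewest reads of the set, 245 and 148, or 8.42 and 5.97 CPM. Its log2 ratio was -0.49, with the widest interval of the 10 genes (-0.80 to -0.20). Nfkb2 shares 299 exon bases with Psd on the opposite strand, which had 111 and 77 reads, and 531 with a noncoding transcript of the opposite strand.

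**Figure D2:**
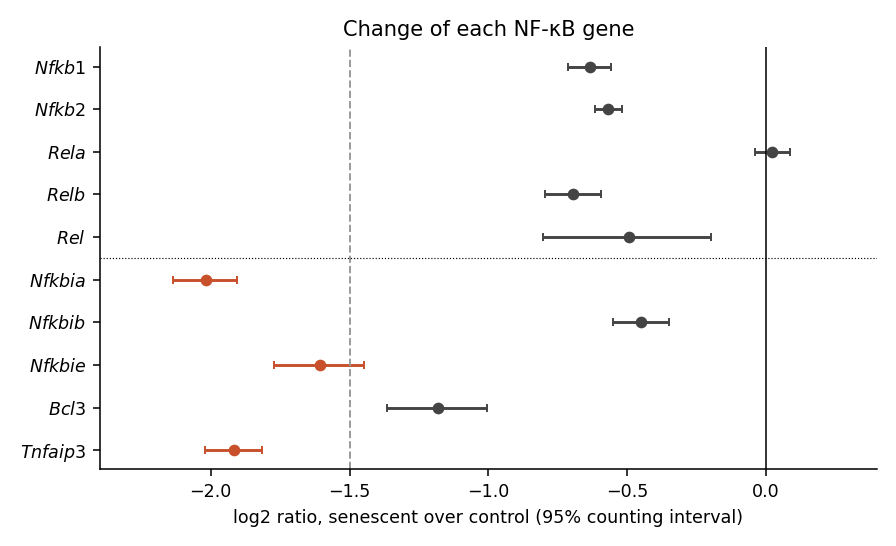
Log2 ratio of senescent over control for each NF-κB gene, with its 95% counting interval. The dashed line marks the threshold of -1.5, the dotted line divides subunits from inhibitors, and orange points were called lower. Nfkbia, Tnfaip3 and Nfkbie lie between -2.02 and -1.61, and the subunit genes between -0.69 and 0.02.

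In all, 9 of the 10 genes had an interval below 0, Rela being the exception, and none had an interval above 0. Of all genes tested, 34.6% had an interval below 0 and 34.0% one above 0. With an assumed variation of 0.1 between biological samples 8 of the 10 kept an interval below 0, Rel being lost, as did 21.3% of all genes tested. With 0.4 it was 2 of the 10, Nfkbia and Tnfaip3, and 3.97% of all genes tested.

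**Figure D3:**
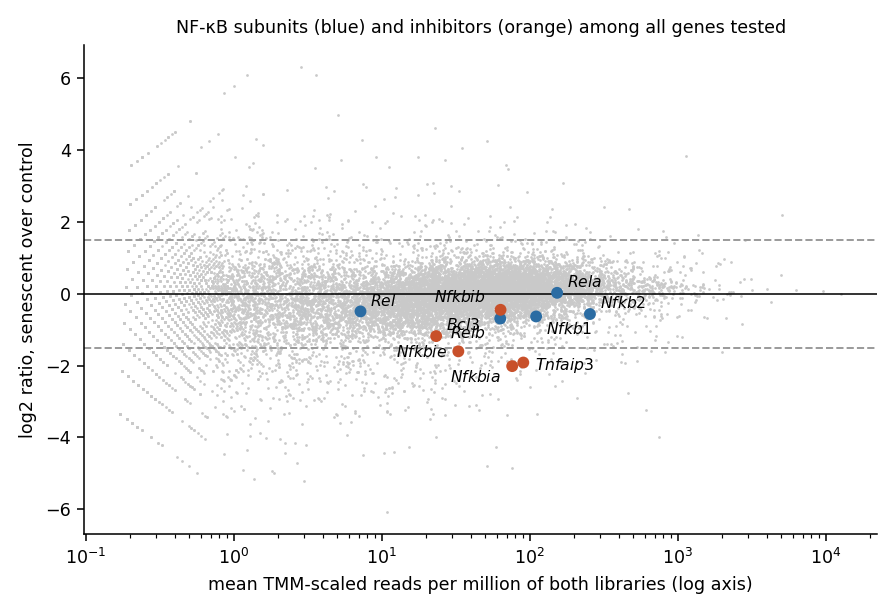
Log2 ratio of senescent over control against the mean TMM-scaled CPM (log axis) for the 14383 genes tested (grey), with subunits in blue and inhibitors in orange. Dashed lines mark -1.5 and 1.5. Nfkbia and Tnfaip3 lie at the lower edge of the cloud, where 3.16% and 3.58% of genes had a lower ratio.

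The reads of each gene were also set against those of Rela in the same library, since this quotient does not depend on how the libraries are scaled. Rela was the member whose own log2 ratio (0.02) lay nearest to 0. The changes relative to it therefore lie close to the scaled ratios above and are not a separate check of them. For each Rela read there were 0.804 Nfkbia reads without peroxide and 0.195 after it, a log2 change of -2.04 (-2.17 to -1.91). For Tnfaip3 the quotient went from 0.942 to 0.245, and for Nfkbie from 0.327 to 0.105. For Nfkb2 it went from 2.01 to 1.33, a log2 change of -0.59 (-0.67 to -0.51). The intervals, which are exact and conditional on the read totals, leave out 0 for each of the 9 other genes, a count that depends on Rela as the reference.

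Levels can be compared between genes only per length, so reads were also divided by the length of the merged exons and given as scaled RPKM, that is CPM per kilobase. With this length Nfkbia had the highest level of the 10 genes in the control library, 75.9, ahead of Nfkb2 at 66.5, Rela at 49.5 and Nfkbib at 33.8. Relb at 20.1 and Tnfaip3 at 19.8 came next and had overlapping counting intervals. Nfkbie at 16.3, Bcl3 at 13.1, Nfkb1 at 11.2 and Rel at 1.13 followed. In the senescent library the order began with Rela at 50.3, Nfkb2 at 44.9 and Nfkbib at 24.8, and Nfkbia was in place 4 at 18.7. Below it came Relb at 12.4 and Nfkb1 at 7.18. Bcl3 at 5.77, Nfkbie at 5.35 and Tnfaip3 at 5.25 followed, and the intervals of Nfkbie overlapped those of Bcl3 and of Tnfaip3. Rel was last at 0.799. The order rests in part on the length used. With the length of the longest transcript, Nfkb2 at 79.3 stood above Nfkbia at 77.4 in the control library, and Bcl3 at 17.5 above Nfkbie at 16.5. In the senescent library Nfkb1 at 20.9 then stood above Nfkbia at 19.1, and Tnfaip3 at 6.11 above Nfkbie at 5.42. In each of these pairs the counting intervals on that length overlapped. Nfkb1 moved the most, since its merged exons span 12061 bases and its longest transcript 4149, and its control level became 32.4.

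Summed over genes, the 3 classical IκB transcripts stood at 126 RPKM without peroxide and at 48.9 RPKM after it. The 5 subunit transcripts stood at 148 and 116. The quotient of IκB to subunit transcripts was therefore 0.849 without peroxide and 0.423 after it, a measure of RNA and not of protein. The makeup of the IκB sum moved as well. Nfkbia made up 60.2% of it without peroxide and 38.3% after it, Nfkbib 26.9% and 50.7%, and Nfkbie 12.9% and 10.9%. Of the subunit sum, Rela made up 33.3% and 43.5% and Nfkb2 44.8% and 38.8%.

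The κB motif was then looked for in the promoters of all the NF-κB genes, on both strands, in RefSeq windows that run from 250 bases before to 50 bases after each transcript start. Matches that overlapped, as palindromic ones do, were counted as 1 place. Windows were found for 8 of the 10 genes, Nfkb1 and Relb being without an entry. The motif was present in 6 of the 8 (75.0%), namely Nfkbia, Nfkbie, Tnfaip3, Nfkb2, Rel and Bcl3, and was not matched in the windows of Rela and Nfkbib. Of all 27025 genes with a window, 9.55% held it. The genes without a match had log2 ratios of 0.02 (Rela) and -0.45 (Nfkbib), and the 6 with a match ranged from -2.02 for Nfkbia to -0.49 for Rel. The intervals of both Rel and Nfkb2 overlapped that of Nfkbib. A match is a description of letters and does not show that a factor binds there.

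Matches of the genes that were not called lower, for Nfkb2 those at its first start only, are given in 30-base stretches, written 5′ to 3′ in the direction of transcription with the match in capitals, to set beside those of Nfkbia, Nfkbie and Tnfaip3 above. The Rel match lies at -92 to -82 (chr11:23771041-23771070, minus strand). The Nfkb2 matches lie at -39 to -29 (chr19:46304689-46304718) and at -11 to -2 (chr19:46304716-46304745, both plus strand) from the first of its 3 RefSeq starts, and they overlap annotated exons. The Bcl3 match lies 3 to 12 bases into the transcript (chr7:19822734-19822763, minus strand).
Rel: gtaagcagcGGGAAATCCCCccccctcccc
Nfkb2 distal: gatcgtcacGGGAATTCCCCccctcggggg
Nfkb2 proximal: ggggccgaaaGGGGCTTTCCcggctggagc
Bcl3: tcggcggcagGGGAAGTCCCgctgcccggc

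**Figure D4:**
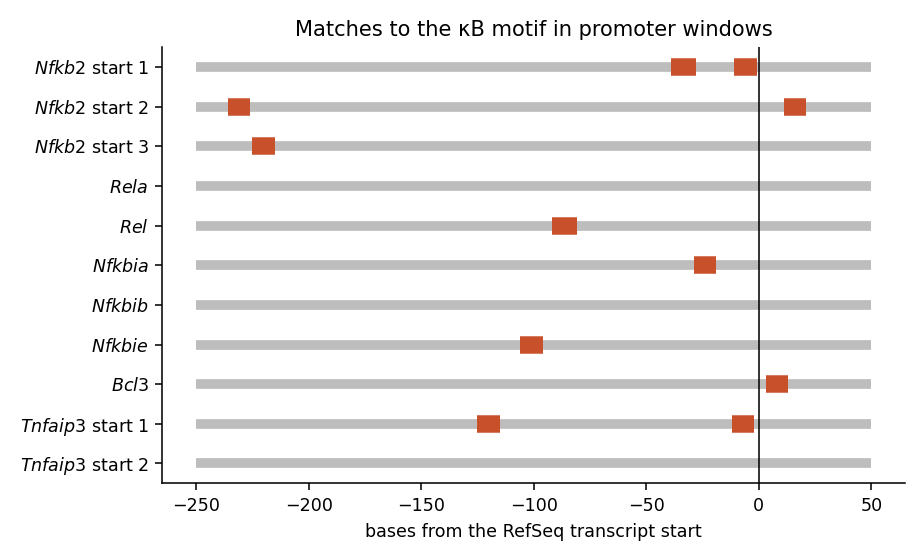
Places of the κB motif (orange) in the promoter windows (grey) of the 8 NF-κB genes with a RefSeq entry, by distance in bases from the transcript start (black line). Genes with several starts have a row for each. Rela, Nfkbib and the second start of Tnfaip3 have no match.

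Across the whole table, genes with and without the motif had nearly the same median. The median log2 ratio was -0.01 over the 1274 tested genes with the motif and -0.02 over the 9120 tested genes with a window and without it. Of those with the motif 7.46% were called lower, and of those without it 4.93%, while 2.43% and 2.50% were called higher. Of the 24 NF-κB target genes listed below that have a window, 11 (45.8%) held the motif.

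The other layers of the pathway were described by 6 lists of 101 further genes, also chosen with earlier results of these data known. Of the 101 genes, 87 had at least 10 reads over both libraries. Of these, 19 were called lower, 1 was called higher and 67 were not called, where 5.60% of all genes tested were called lower and 2.71% higher. The targets accounted for 13 of the 19. The 57 tested genes of the other 5 lists had a median log2 ratio of -0.06, close to that of all genes. Of these 57, 6 were called lower and none higher.

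Ligand transcripts were scarce in both libraries. Tnf had 4 control reads and 0 senescent reads, Il1a had 1 and 0, Il1b had 0 and 1, and Tnfsf11 and Cd40lg had 0 in both. These reads were too few to show whether the genes differed between the libraries. The interval of Tnf had no lower bound and reached up to 0.83, so it limits a rise but not a fall. Lta, which encodes lymphotoxin α, had 9 and 0 reads, under the minimum of 10 for a call. Ltb, which encodes the membrane-bound lymphotoxin β, was called lower on 26 and 3 reads, with a log2 ratio of -2.56 and a wide interval of -5.25 to -1.18. Its senescent reads were at the floor of 3, so the size of its change is poorly known. Tnfsf12, which encodes the TWEAK ligand, had 195 and 115 reads and was not called (-0.53).

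Of 11 receptor genes tested, 2 were called lower and none higher, beside 5.60% and 2.71% of all genes. Il1r1, the signaling receptor of interleukin-1, fell from 563 to 66 reads (-2.85, interval -3.25 to -2.49). Tlr2, a receptor of bacterial lipoproteins, had 213 and 32 reads (-2.47, interval -3.09 to -1.96). The TNF receptor gene Tnfrsf1a had 3610 and 3621 reads (0.23), and Tnfrsf12a, the receptor of TWEAK, 7005 and 7886 (0.40). Tlr3 and Tnfrsf1b stood at -0.33 and -0.29.

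Among 15 adaptor genes 1 was called lower, a share near the 5.60% of all genes tested. This was Birc3, which encodes the ubiquitin ligase cIAP2 and is a known NF-κB target, with 1178 and 304 reads (-1.72, interval -1.91 to -1.54). Traf5 stood at -1.21, Birc2, the gene of cIAP1, at -1.01 and Traf1 at -0.92. Traf3 and Traf6, the highest of the list, were at 0.16 and 0.15.

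Of 11 kinase genes tested 1 was called lower and none higher, so that, beside the 5.60% of all genes, the count says little about the kinases. Chuk, which encodes the IKKα catalytic subunit, had 3961 and 4923 reads (0.54), Ikbkb, the gene of IKKβ, 1927 and 1985 (0.27), and Ikbkg, the gene of the NEMO scaffold, 4702 and 4194 (0.06). The kinase gene called lower was Map3k14, which encodes NIK, with 862 and 253 reads and a log2 ratio of -1.54 (-1.75 to -1.34). Its interval reached past -1.5. Ikbke, an IKK-related kinase that is itself inducible, had 5951 and 2128 reads (-1.25), and Tab3, the highest of the 11, was at 0.78.

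Of 18 other regulators of the pathway 1 was called lower, again a share near the 5.60% of all genes. This was Tnip3, a partner of A20, with 20 and 2 reads (-2.62, interval -6.23 to -1.05). Its senescent reads were under the floor of 3, so the size of its change is poorly known. Zc3h12a, which encodes the RNase Regnase-1, stood at -0.81 and Itch at -0.31. Nfkbiz, which encodes the nuclear IκB-like protein IκBζ, had 1157 and 910 reads (-0.12, interval -0.24 to 0.01). Unlike Nfkbia and Nfkbie, it was not called. The deubiquitinase genes Cyld and Otulin stood at 0.08 and 0.20, and Rnf31, which encodes the linear ubiquitin ligase HOIP, and Tax1bp1, which encodes a partner of A20, were both at 0.64. The β-TrCP genes, whose products attach ubiquitin to phosphorylated IκB, were at -0.29 for Btrc and 0.57 for Fbxw11.

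Target genes of NF-κB held the lowest ratios. Of 30 tested, 13 were called lower and 1 higher, beside 5.60% and 2.71% of all genes. The median log2 ratio was -1.14, and -0.02 over all genes. The 4 lowest were Saa3, an acute phase protein gene, with 626 control and 7 senescent reads (-6.08, interval -7.57 to -5.20), Lcn2, the gene of the iron-binding protein lipocalin 2, with 4293 and 125 reads (-4.86), Ccl20, a chemokine gene, with 1270 and 67 reads (16.0-fold lower), and the complement gene C3, also 16.0-fold lower. Bcl2l1 and Ier2 were each at 0.44. The gene called higher was Ptgs2, the gene of cyclooxygenase-2, named after its values were seen, with 25 and 66 reads (1.59, interval 0.95 to 2.36). Its call was lost with total-count scaling, a prior count of 5 or an assumed variation of 0.4. Many targets are also governed by other factors, whose part in these values was not tested.

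**Figure D5:**
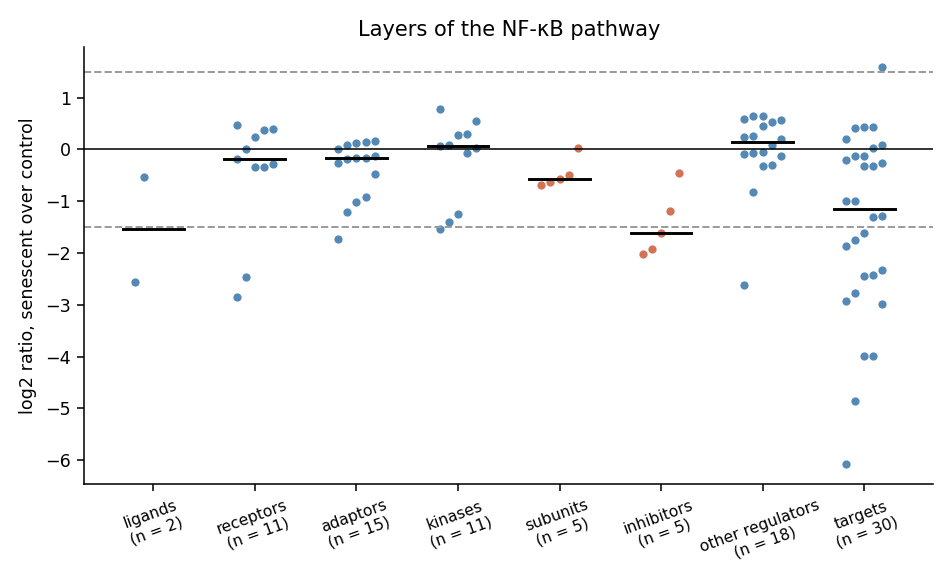
Log2 ratio of senescent over control for every gene with at least 10 reads in each layer of the NF-κB pathway, with the median as a black bar and the number of genes under each name. Subunits and inhibitors are orange, other layers are blue, and dashed lines mark -1.5 and 1.5. The medians of kinases and other regulators lie at 0.06 and 0.14, that of the inhibitors at -1.61 and that of the targets at -1.14.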

How the data were processed

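The authors deposited, without normalization, the count of reads for each Ensembl gene in 1 control and 1 senescent library. The submitters' processing notes name STAR, edgeR, DESeq2 and the build mm10. The counting tool, annotation and strand setting are not given in the sources used here. Each column was given to the condition whose title starts with the same letter. Symbols, positions and exon lengths came from GENCODE M21 (GRCm38), and promoters from RefSeq (GRCm38.p6).

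Counts were scaled with TMM in edgeR 4.0.16 (factors 1.04 and 0.964), with a prior count of 1 adjusted to library size. DESeq2 1.42.0 size factors served as an alternative. Intervals are 95% Clopper-Pearson intervals (scipy 1.17.1) of the share of each gene's reads that came from the senescent library. They and the floor of 3 reads cover counting error only, since PCR copies are not told apart from independent molecules. The log2 threshold of 1.5 is that of the study's methods. With 1 library per condition the tests of edgeR and DESeq2 had no residual degrees of freedom. The calls and intervals were tested on simulated data. The intervals held their level without variation between samples and fell short of it when variation was added. The planted changes lay well past the threshold, so calls of changes near it were not tested.

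The members and lists were chosen with earlier results of these data known. All 10 members were named, and of each list up to 4 genes with the lowest and 2 with the highest ratio among those with at least 100 reads, beside ligands, receptors and inhibitors at the floor. Ikbkb, Ikbkg, Tnip3, Ptgs2, Cyld, Otulin, Fbxw11 and Nr3c1 fall outside this rule and were chosen after their values were seen.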

Additional observations from a re-analysis of the deposited data

How the results depend on the processing

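Each NF-κB gene's log2 ratio stayed within its counting interval with DESeq2 or upper-quartile scaling and with a smaller prior count or one of 5, although upper-quartile scaling put Rela at -0.02. Total-count scaling shifts every ratio by -0.11, and it moved Nfkb1 to -0.74, Nfkb2 to -0.67, Rela to -0.084, Relb to -0.80, Nfkbib to -0.56 and Tnfaip3 to -2.02, so that the sign of Rela turned there too. The count of 3 genes lower was 3 under every scaling, filter and prior count and at an assumed variation of 0.1, 4 at a threshold of 1, 1 at a threshold of 2 (Nfkbia) and 2 at an assumed variation of 0.4, where Nfkbie was lost. No gene of the set was higher under any alternative. Of the pathway lists, 14 to 26 genes were lower in the 11 alternatives. It was 17 with at least 100 reads, a filter that Ltb and Tnip3 do not pass. The count higher was 0 in place of 1 with total counts, at least 100 reads, a prior count of 5, a threshold of 2 or an assumed variation of 0.4. With the longest transcript as the length, chosen after seeing the data, the quotient of IκB to subunit transcripts was 0.672 without peroxide and 0.345 after it. In the 250 bases before the start alone, also chosen after seeing the data, 5 in place of 6 genes held the κB motif. No paired analysis was possible because each condition has 1 library. With few reads, as for Rel and the ligands, counting error alone leaves wide intervals.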

Other observations

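Nfkbia is also known as a glucocorticoid-inducible gene, and the complete medium held dexamethasone. The values of 15 glucocorticoid-induced genes or receptor genes are therefore given here. Since the peroxide was given in serum-free medium, equal exposure of the groups to dexamethasone cannot be assumed. Of 14 with at least 10 reads, 3 were lower past the threshold and none was higher, beside 5.60% and 2.71% of all genes tested. The median log2 ratio was -0.48, and -0.02 over all genes. Lcn2, which is also in the target list above, stood at -4.86. Zbtb16 had 1081 control and 146 senescent reads (-2.65, interval -2.92 to -2.41) and Dusp1, the gene of a MAP kinase phosphatase, 1684 and 464 (-1.63, interval -1.78 to -1.48). Mt2, a metallothionein gene, stood at -1.41. Fkbp5 and Sgk1, the highest of the list among genes with at least 100 reads, stood at 0.41 and 0.09. The glucocorticoid receptor gene Nr3c1 had 3280 and 2950 reads (0.08, interval 0.00 to 0.15). Their part in the level of Nfkbia was not tested.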
